A study of Mus musculus with 10 samples.

Results

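Messenger RNA of 37 genes of homologous recombination and the DNA damage response was followed in T_reg cells that had kept or lost the Foxp3 protein for 14 days. The genes were listed by their role, with earlier results of these data known: Brca1 and other factors of strand exchange, the Fanconi anaemia genes, the genes that resect and join broken ends, and the kinases and sensors of the checkpoint. All 37 were among the 55809 gene rows of every library, and all 37 were among the 16363 genes whose mean count reached 10 and which were tested.

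Each library was bulk RNA-seq of T_reg cells from spleen and lymph nodes of a mouse in which the Foxp3 gene carries an auxin-inducible degron (AID), so that the protein bears this tag, together with ZsGreen and Cre. In the R26-TIR1(F74G) group (6 libraries, replicates 5 to 10) Cre opens a ROSA26 allele for TIR1(F74G), a plant ubiquitin ligase subunit, and mCherry, and the auxin analog 5-ph-IAA then directs the fusion protein to degradation. In the R26-WT group (4 libraries, replicates 1 to 4) the ROSA26 locus is wild-type, so the degron and the drug are shared and both the ligase and mCherry are missing. The drug was given for 14 days in both; the headers of the count files call the mice male, and neither labels nor headers give their age. Where the sort used mCherry as well as ZsGreen, the gate differed together with the genotype, and the 2 cannot be told apart.

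A break through both strands of DNA can be repaired by copying the sister chromatid, which is homologous recombination, or by direct ligation, which is end joining. Recombination needs resected ends and acts when a sister chromatid is present, in the S and G2 phases, so many of its genes are transcribed mainly in dividing cells, while the Ku proteins and Trp53 are made in resting lymphocytes as well. The Fanconi anaemia proteins hand crosslinked forks to the same recombination factors, and the kinases Atm and Atr, through Chek2 and Chek1, hold the cell cycle while repair proceeds.

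Libraries held 24158699 to 54795718 counted read pairs, the lowest in R26-TIR1(F74G) replicate 8. The 7 T_reg cell genes examined (Foxp3, Il2ra, Ctla4, Ikzf2, Tnfrsf18, Cd4 and Cd3e) were all expressed. Their summed level was 3086 to 3309 CPM (counts per 1000000 counted pairs) in R26-WT and 2874 to 3164 in R26-TIR1(F74G). None passed the test, but 5 of the 7 log2 fold changes were below 0 and 2 above. Ctla4, at -0.31 (SE 0.13), and Tnfrsf18, at -0.42 (SE 0.19), had an unadjusted DESeq2 p under 0.05. Foxp3 RNA, which the degron does not act on, had a log2 fold change of 0.074 (SE 0.25). Markers of other cells differed widely in level. Of the B cell list 3 of 7 genes reached the mean count for testing, and of the plasma cell, myeloid, CD8 and NK, erythroid and thymocyte lists 1 of 5, 3 of 7, 5 of 6, 1 of 5 and 1 of 4. Summed B cell markers lay between 19.2 and 31.6 CPM in R26-WT and between 17.3 and 33.9 in R26-TIR1(F74G), with Pax5 at no more than 3 counts in any library. Cd79b of that list was not low, at 14.8 and 11.9 CPM per kilobase of exon, and neither was Cd8b1 of the CD8 and NK list, at 22.8 and 19.7, with log2 fold changes of -0.33 (SE 0.20) and -0.23 (SE 0.14) that did not pass, while Cd8a was at 0.0962 and 0.0674. The CD8 and NK list summed to 30.1 to 44.7 CPM in R26-WT and 31.4 to 40.0 in R26-TIR1(F74G), and the plasma cell list, of which Irf4 alone was tested, to 12.6 to 41.5 and 21.8 to 49.2. The myeloid, erythroid and thymocyte lists stayed at or below 3.45, 0.911 and 3.15 CPM in every library. Mzb1, Tnfrsf17, Ncr1, S100a9 and Ptcra were at 0 in all libraries. Cd22 was higher in R26-TIR1(F74G) and stood at 273 normalized counts in replicate 9, the rest of that group lying between 23.6 and 51.2, and Eomes, which activated T cells also express, was higher too, with 302 ± 63.1 against 109 ± 29.8 normalized counts. The study's methods describe a repeated sort of CD4+ TCRβ+ ZsGreen+ cells for bulk RNA-seq of adult female mice with 1 Foxp3-AID allele. That gate leaves out B, plasma, myeloid, NK and CD8 T cells. The mice here are called male, and whether their cells were sorted in that way is not stated. The part of other cells in the results below was not tested.

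Between the genotypes, 4 of the 37 genes passed the test and all 4 were higher in R26-TIR1(F74G): Chek1, Rmi2, Rad54l and Rad51ap1. None was lower. Among all 16363 genes tested, 1.74% were called in either direction and 1.40% were called higher (DESeq2, Benjamini-Hochberg adjusted p under 0.05). Their fold changes lay between 1.60 and 2.12. Leaving out R26-WT replicate 3 or replicate 4 reduced the 4 calls to 2, Rmi2 and Chek1, and leaving out R26-WT replicate 2 raised them to 7, with Rad54b, Brip1 and Exo1 added. With the edgeR quasi-likelihood test none of the 37 was called, against 0.373% of all genes, and the smallest adjusted p among them was 0.0862. At an unadjusted p under 0.05, 8 genes were higher and none was lower by either tool, against 4.17% of all genes that were higher by DESeq2 and 3.59% by edgeR. In bulk RNA a larger share of cells that transcribe these genes and more RNA per cell cannot be told apart.

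Chek1 encodes the checkpoint kinase that Atr activates (chr9:36619778-36638361, minus strand, GRCm39). It had 126, 152, 140 and 81.2 normalized counts, that is, read-pair counts divided by the DESeq2 size factor of the library, in R26-WT replicates 1 to 4. In R26-TIR1(F74G) replicates 5 to 10 it had 195, 267, 392, 271, 225 and 230.1. Every R26-TIR1(F74G) library lay above every R26-WT library. The means were 125 ± 30.8 (SD, n = 4) and 263 ± 68.9 (SD, n = 6). The log2 fold change was 1.08 (SE 0.23, 95% interval 0.62 to 1.54), with an adjusted p of 7.01e-04 by DESeq2 and 0.0862 by edgeR. It passed in all 10 DESeq2 fits that left out 1 library.

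Rmi2 encodes a small subunit of the Blm complex, which takes apart the joined DNA molecules that recombination leaves behind (chr16:10652923-10710830, plus strand, GRCm39). Normalized counts were 340, 436, 489.9 and 447 in R26-WT replicates 1 to 4 and 588, 757, 691, 644, 583 and 847 in R26-TIR1(F74G) replicates 5 to 10. The groups did not overlap, and within either group the highest library was less than 1.5 times the lowest. The log2 fold change was 0.68 (SE 0.16, 95% interval 0.37 to 0.99), the smallest change of the 4 genes, with an adjusted p of 0.00191 by DESeq2 and 0.103 by edgeR. All 10 fits without 1 library called it.

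Rad54l encodes a DNA translocase that helps the broken strand invade the intact duplex (chr4:115951461-115980887, minus strand, GRCm39). It had 219.8, 193, 136 and 104 normalized counts in R26-WT replicates 1 to 4 and 253, 282, 362, 384, 241 and 289 in R26-TIR1(F74G) replicates 5 to 10. The highest R26-WT library came close to the lowest R26-TIR1(F74G) library without overlap. Its log2 fold change was 0.89 (SE 0.23, 95% interval 0.44 to 1.34), with an adjusted p of 0.00968 by DESeq2 and 0.152 by edgeR. The call was lost without R26-WT replicate 3 and without R26-WT replicate 4. Exons of Lrrc41 on the other strand cover 15.4% of its exon bases, and pairs that fell on both genes were not counted.

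Rad51ap1 encodes a protein that promotes the pairing of the broken strand with its template (chr6:126900013-126916550, minus strand, GRCm39). Normalized counts were 107, 152, 101 and 83.7 in R26-WT replicates 1 to 4 and 169.6, 188, 356, 199.9, 168 and 170.2 in R26-TIR1(F74G) replicates 5 to 10. Replicate 7 stood far above the other 5 libraries of its group, all of which were still above the R26-WT libraries. The log2 fold change was 0.92 (SE 0.26, 95% interval 0.40 to 1.43), with an adjusted p of 0.0318 by DESeq2 and 0.238 by edgeR. It passed in 6 of the 10 fits without 1 library, including the one without replicate 7, and failed without R26-WT replicate 1, 3 or 4 or R26-TIR1(F74G) replicate 8.

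**Figure D1:**
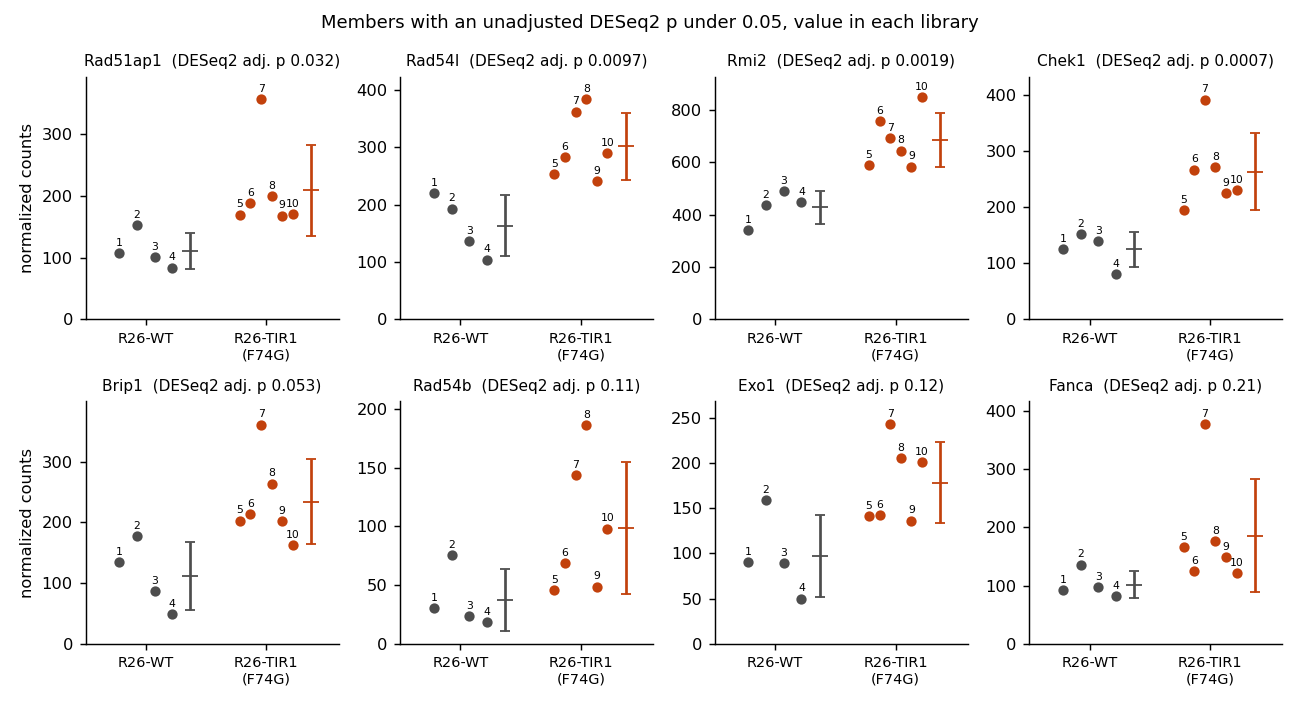
Normalized counts (y axis, from 0) of the 8 genes with an unadjusted DESeq2 p under 0.05, in each library of R26-WT and R26-TIR1(F74G); numbers beside points are replicates, and bars give mean and SD. The groups are apart for Rad51ap1, Rad54l, Rmi2 and Chek1 and overlap for Brip1, Rad54b, Exo1 and Fanca.

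The bases before the start sites of the called genes are shown as a description, and their part in the differences between the genotypes was not tested. RefSeq promoter sequences (GRCm38.p6) were at hand for 29 of the 37 genes and for 3 of the 4 called, and the 250 bases before the start are printed on the strand of the gene, 5′ to 3′, with capitals on CCAAT or its reverse complement ATTGG, a box known from cell cycle promoters.
Rad54l (chr4:116123691-116123940, minus strand): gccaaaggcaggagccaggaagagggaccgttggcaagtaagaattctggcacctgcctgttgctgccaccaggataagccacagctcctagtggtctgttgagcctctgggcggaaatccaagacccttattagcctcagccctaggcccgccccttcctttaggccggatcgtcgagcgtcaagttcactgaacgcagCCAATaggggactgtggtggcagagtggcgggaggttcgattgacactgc
Rad51ap1 (chr6:126939588-126939837, minus strand): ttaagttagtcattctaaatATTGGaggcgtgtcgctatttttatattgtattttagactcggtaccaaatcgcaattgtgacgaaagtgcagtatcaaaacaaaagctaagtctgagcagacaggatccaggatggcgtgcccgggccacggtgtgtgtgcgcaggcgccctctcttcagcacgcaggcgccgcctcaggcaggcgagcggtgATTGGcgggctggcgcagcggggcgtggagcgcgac
Chek1 (chr9:36726659-36726908, minus strand): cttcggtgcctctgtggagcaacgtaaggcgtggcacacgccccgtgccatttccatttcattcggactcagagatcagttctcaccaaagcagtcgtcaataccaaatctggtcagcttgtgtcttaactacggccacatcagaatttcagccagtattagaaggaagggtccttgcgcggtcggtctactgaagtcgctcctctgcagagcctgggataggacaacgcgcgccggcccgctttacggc
Rad54l held CCAAT starting 50 bases before the start site, Rad51ap1 held it on the other strand starting 230 and 36 bases before, and the Chek1 stretch held none. Over windows of 300 bases (250 before to 50 after the start), CCAAT on either strand was in 19 of the 29 genes (65.5%) and in 41.1% of the 27025 genes with such a window. Of the 19 only Rad54l and Rad51ap1 were called. The 27025 genes were not limited to those tested for expression. TTTCGCGC and TTTGGCGC, spellings of the E2F site, were in 0 of the 29 genes and in 0.374% and 0.585% of all genes. TTTGAA was in 1 of 29 (Bard1) against 20.2%, and TTCGAA, which is its own reverse complement, in 1 of 29 (Atr) against 1.80%. Each motif was searched on both strands, none of the 5 holds another, and only these exact letters were counted.

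The other homologous recombination genes did not pass the test. Rad54b, a relative of Rad54l, had the largest log2 fold change of the 37 genes, 1.41 (SE 0.47), from 37.1 ± 26.2 to 98.6 ± 56.3 normalized counts. Its libraries overlapped, with R26-WT replicate 2 at 75.8 above R26-TIR1(F74G) replicates 5, 6 and 9, and its adjusted p was 0.106 by DESeq2 and 0.462 by edgeR. Exons of Fsbp and Gm11832 cover 35.9% of its exon bases.

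Brca1, the ubiquitin ligase that steers breaks into recombination, had 97.9, 137, 32.6 and 33.0 normalized counts in R26-WT replicates 1 to 4 and 136, 65.7, 339, 133, 49.8 and 149 in R26-TIR1(F74G) replicates 5 to 10. The groups overlapped between 49.8 and 137, and the log2 fold change was 0.96 (SE 0.51), under 2 standard errors from 0. Bard1, its partner in the ligase, was at 40.4 ± 19.9 and 56.3 ± 10.1 normalized counts with a log2 fold change of 0.48 (SE 0.32).

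Palb2, which joins Brca1 to Brca2, had 504, 580.5, 282 and 334 normalized counts in R26-WT and 479, 421, 683, 399.7, 473 and 479 in R26-TIR1(F74G). Apart from replicate 7, the R26-TIR1(F74G) libraries lay inside the R26-WT range, and the log2 fold change was 0.20 (95% interval -0.24 to 0.65). Brca2, which prepares the resected strand for exchange, had a log2 fold change of 0.27 (95% interval -0.14 to 0.68).

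Rad52, which anneals complementary strands, was the most abundant of the 10 recombination genes per exon length. It had 1620.4, 1359, 1630.2 and 1730.2 normalized counts in R26-WT and 1359, 1635, 1123, 1496, 1509 and 1346 in R26-TIR1(F74G), a log2 fold change of -0.17 (95% interval -0.43 to 0.089). The groups shared most of their range. Xrcc2 and Xrcc3, which assist strand exchange, had log2 fold changes of -0.15 (95% interval -0.57 to 0.28) and 0.38 (95% interval -0.046 to 0.82).

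Of the 6 Fanconi anaemia genes none passed, against 1.74% of all genes tested. Brip1, a helicase that binds Brca1, came nearest: it had 135, 177, 86.3 and 48.2 normalized counts in R26-WT and 203, 213, 361, 264, 202 and 163 in R26-TIR1(F74G), and only replicates 2 and 10 crossed. Its log2 fold change was 1.07 (SE 0.32), with an adjusted p of 0.053 by DESeq2 and 0.305 by edgeR, and it passed once R26-WT replicate 2 or, separately, R26-TIR1(F74G) replicate 10 was left out. Fanca, of the core complex, had a log2 fold change of 0.87 (SE 0.32; adjusted p 0.212 by DESeq2), which was 0.53 without replicate 7, and exons of Zfp276 cover 10.5% of its exon bases.

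The ubiquitylated clamp of the pathway, Fancd2 with Fanci, had log2 fold changes of 0.53 (SE 0.44) and 0.25 (SE 0.27). Fanci had 502, 504, 400.4 and 485 normalized counts in R26-WT and 732, 558, 808, 520, 241 and 502 in R26-TIR1(F74G). The 6 libraries spread on both sides of the R26-WT range, replicate 9 being the lowest of all 10, and exons of Polg cover 16% of its exon bases. Fancd2 spanned 30.3 to 207 normalized counts within R26-TIR1(F74G), again from replicate 9 to replicate 7.

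Fancm, the translocase that finds stalled forks, had 459, 605, 327 and 283 normalized counts in R26-WT and 454, 381, 812, 384, 342 and 381 in R26-TIR1(F74G). Without replicate 7 its log2 fold change of 0.13 (SE 0.28) turned to -0.11, and without R26-WT replicate 4 to -0.011, so its direction was not stable. Fancb, of the core complex, had a log2 fold change of -0.086 (95% interval -0.60 to 0.43).

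Among the genes that resect ends or dissolve joints, Exo1, the exonuclease of long resection, had a log2 fold change of 0.88 (SE 0.30; adjusted p 0.124 by DESeq2 and 0.407 by edgeR). Its R26-WT libraries had 90.0, 159, 88.7 and 49.9 normalized counts and its R26-TIR1(F74G) libraries 141, 142, 243, 205, 136 and 201. Replicate 2 was the single R26-WT library inside the R26-TIR1(F74G) range, and the gene passed when it was left out. Blm, the helicase that works with Rmi2, had a log2 fold change of 0.33 (SE 0.34) and ran from 191 to 819 normalized counts within R26-TIR1(F74G).

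Mre11a and Nbn start resection as parts of the same complex. Mre11a had 2238, 2212, 1264 and 1391 normalized counts in R26-WT and 2116, 1701, 2361, 1795, 1702 and 1929 in R26-TIR1(F74G), with a log2 fold change of 0.12 (95% interval -0.25 to 0.50). Nbn had 2941, 2565, 3002 and 2495 in R26-WT and 2837, 2963, 2692, 2874, 2955 and 2571 in R26-TIR1(F74G), with a log2 fold change of 0.033 (95% interval -0.16 to 0.22). Nbn was among the steadiest of the 37 genes, whereas Mre11a fell into a higher and a lower pair within R26-WT.

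**Figure D2:**
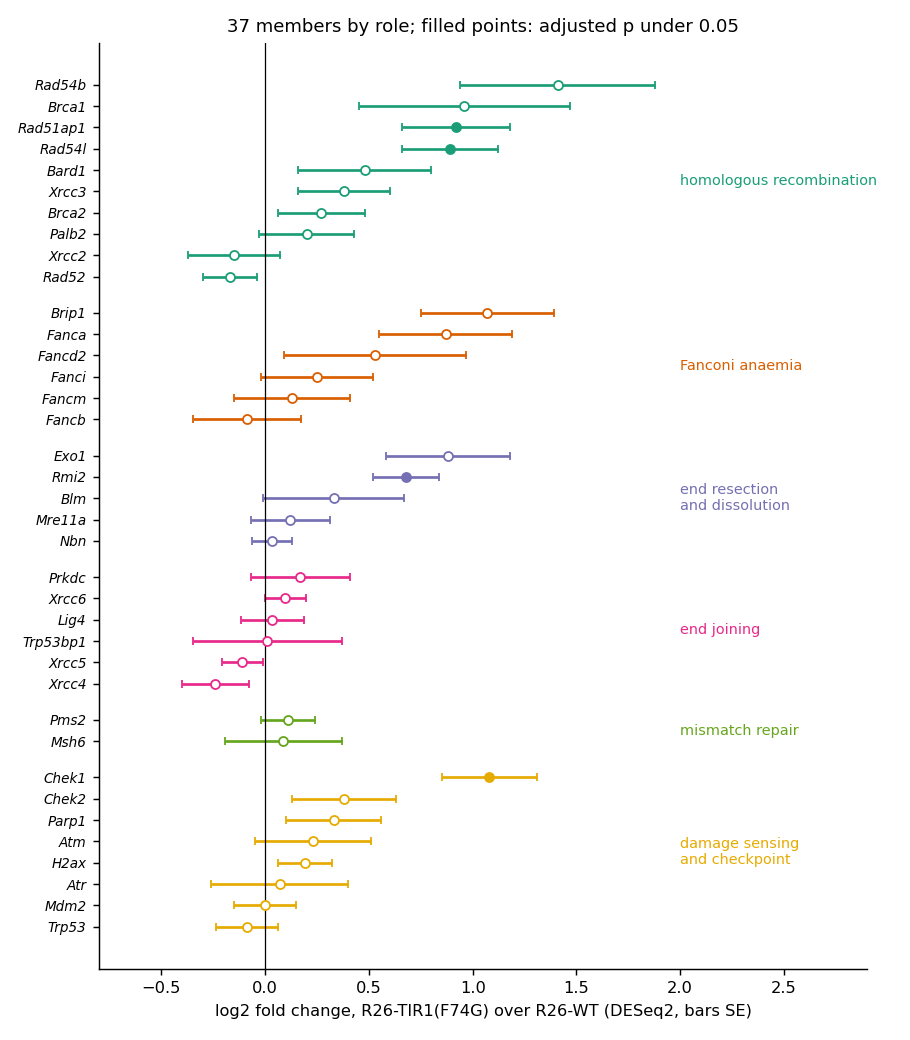
Log2 fold change of R26-TIR1(F74G) over R26-WT (x axis; bars are the SE) for each of the 37 genes, grouped by role. Filled points passed the DESeq2 test; the positive values above 0.6 belong to recombination, Fanconi anaemia, resection and Chek1, and the 6 end joining genes lie between -0.24 and 0.17.

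None of the 6 end joining genes passed or had an unadjusted p under 0.05 by DESeq2. Among all 16363 genes tested, 1.74% passed and 1122 had such a p, so 0 of 6 says little about end joining. The Ku subunits, which bind free ends, were Xrcc6 with 3986, 3637, 4331 and 4306 normalized counts in R26-WT and 4303, 4666, 3922, 4639, 3978 and 4588 in R26-TIR1(F74G), and Xrcc5 with 3054, 2709, 3071 and 2624 against 2815, 2842, 2349, 2731, 2641 and 2558. The ranges of the groups overlapped for both. Their 95% intervals, -0.10 to 0.29 for Xrcc6 and -0.30 to 0.083 for Xrcc5 on the log2 scale, leave out changes as large as those of the 4 called genes.

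Prkdc, the kinase that Ku recruits, had a log2 fold change of 0.17 (95% interval -0.30 to 0.64). Lig4, the ligase, and Xrcc4, its partner, had log2 fold changes of 0.035 (95% interval -0.27 to 0.34) and -0.24 (95% interval -0.57 to 0.078). Trp53bp1, which shields ends from resection, had a log2 fold change of 0.0098, but with an SE of 0.36: it ran from 775 to 2418 normalized counts within R26-WT and from 928 to 2907 within R26-TIR1(F74G), and exons of Tubgcp4 cover 15% of its exon bases.

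The mismatch repair genes did not pass either. Msh6, which recognises mismatches, had 4538, 4945, 2114 and 2361 normalized counts in R26-WT and 4234, 2792, 5605, 3569, 2485 and 3571 in R26-TIR1(F74G), with a log2 fold change of 0.088 (95% interval -0.46 to 0.64). Pms2, of the endonuclease that follows, had 1573, 1623, 1296 and 1252 in R26-WT and 1622, 1536, 1732, 1518, 1264 and 1606 in R26-TIR1(F74G), with a log2 fold change of 0.11 (95% interval -0.15 to 0.36). For both genes the lowest and highest R26-WT libraries bracketed most R26-TIR1(F74G) libraries.

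Apart from Chek1, the sensors and checkpoint genes showed smaller differences that did not pass. Trp53, encoding p53, had 13944, 14613, 18422 and 18783 normalized counts in R26-WT and 14788, 18090.4, 12062, 14396, 17712 and 15663 in R26-TIR1(F74G), with a log2 fold change of -0.089 (95% interval -0.38 to 0.20). Mdm2, its ubiquitin ligase and itself a p53 target, had 7111, 7006, 4909 and 5035 in R26-WT and 6033, 5975, 6505, 6383, 4967 and 6167 in R26-TIR1(F74G), with a log2 fold change of -0.0024 (95% interval -0.29 to 0.29). The R26-WT libraries of both genes split into a high and a low pair with the R26-TIR1(F74G) values mostly between or around them.

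The kinases Atm and Atr had log2 fold changes of 0.23 (95% interval -0.32 to 0.78) and 0.071 (95% interval -0.58 to 0.72), and Chek2, the target of Atm, 0.38 (95% interval -0.12 to 0.88). H2ax, the histone phosphorylated around breaks, was at 2419 ± 429 and 2751 ± 159.8 normalized counts, a log2 fold change of 0.19 (95% interval -0.068 to 0.44). Parp1, which marks nicks and breaks with poly(ADP-ribose), was at 4020.1 ± 1229 and 5046 ± 1193, a log2 fold change of 0.33 (95% interval -0.12 to 0.78).

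Over the 37 genes, 30 log2 fold changes were above 0 and 7 below, with a median of 0.20, beside a median of 0.00063 over all 16363 genes tested. The median was 0.11 with the trend over gene length removed, 0.10 with a surrogate variable in the fit and -0.25 with the mean of the mitosis genes described below as a covariate. Leaving out replicate 2 of R26-WT gave 0.36, leaving out replicate 3 gave 0.13, and leaving out replicate 7 of R26-TIR1(F74G) gave 0.11. By role the median was 0.43 for homologous recombination, 0.39 for Fanconi anaemia, 0.33 for resection and dissolution, 0.21 for sensing and checkpoint, 0.098 for mismatch repair and 0.023 for end joining. These medians are descriptions, and no test between roles was made. In 4 genes, the 4 called, all R26-TIR1(F74G) libraries lay above all R26-WT libraries, which 1.57% of all genes tested did.

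Levels can be compared between genes only per exon length, here as counts per kilobase of exon per 1000000 counted pairs (CPM per kilobase). On that scale Trp53 was highest, at 93.0 ± 14.7 in the 4 R26-WT libraries and 88.4 ± 12.9 in the 6 R26-TIR1(F74G) libraries (mean ± SD), and H2ax followed at 40.0 ± 7.30 and 46.0 ± 2.71. The lowest library of Trp53 was above the highest of H2ax, and the lowest of H2ax above the highest of Mdm2. Next came Mdm2, Nbn, Xrcc5, Xrcc6, Parp1 and Msh6, with means from 17.3 to 27.3, whose neighbours in the order overlapped between libraries. A gap followed between Msh6 and Mre11a, at 6.85 ± 1.98 and 7.54 ± 0.978. The 10 lowest genes were all recombination, Fanconi anaemia or resection genes, down to Bard1 at 0.163 ± 0.0790 and 0.230 ± 0.0418. The called genes stood in the middle and lower part of the order, with Rmi2 at 2.18 ± 0.323 and 3.52 ± 0.528 in position 15 and Chek1, Rad51ap1 and Rad54l in positions 25, 28 and 29. Together the 37 genes took 1283 to 1453 CPM in R26-WT and 1304 to 1584 in R26-TIR1(F74G), and Trp53 alone made up 26.3% of that on average.

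**Figure D3:**
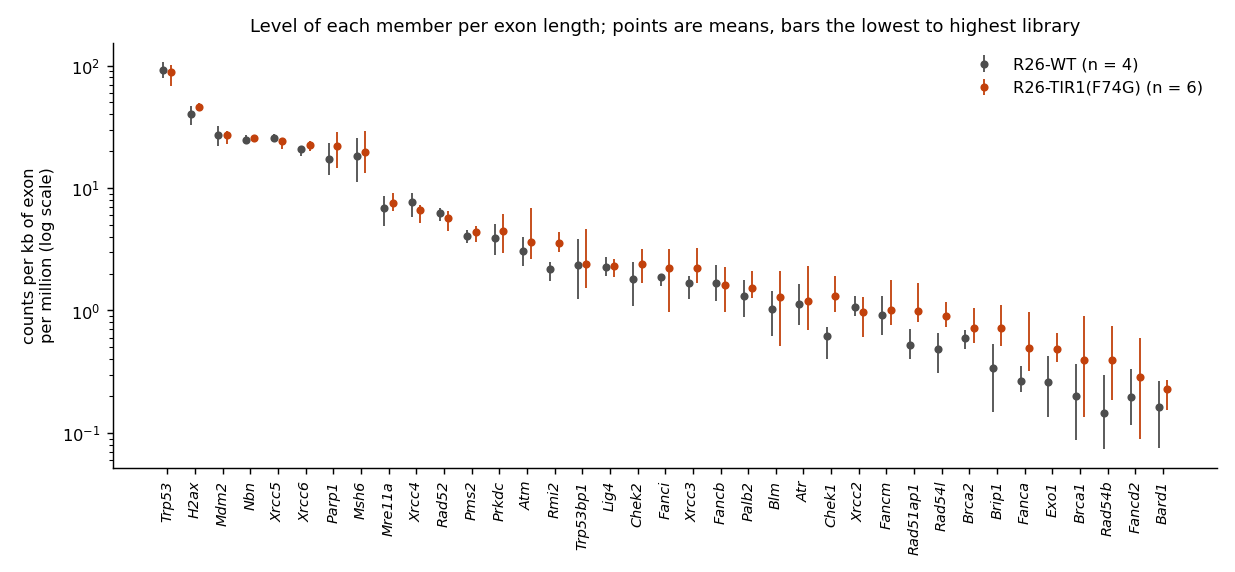
CPM per kilobase of exon (y axis, log scale) of each of the 37 genes, ordered by their mean over the 10 libraries; points are group means and bars run from the lowest to the highest library. Trp53 and H2ax stand apart at the top, and the R26-WT and R26-TIR1(F74G) bars separate only for Rmi2, Chek1, Rad51ap1 and Rad54l.

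Libraries of one group also differed from each other in these genes. The ratio of the highest to the lowest library had a median of 1.81 within R26-WT and 1.96 within R26-TIR1(F74G) over the 37 genes, and of 1.58 and 1.67 over all genes tested. In 24 of the 37 genes (64.9%) R26-TIR1(F74G) replicate 7 was the highest of its group, as in 30.4% of all genes, and in 19 (51.4%) replicate 9 was the lowest, as in 4257 of the 16363 genes tested. Within R26-WT, replicate 2 was the highest in 24 genes (64.9%, against 34.1%) and replicate 4 the lowest in 16 (43.2%, against 19.3%).

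Replicates 1 and 2 of R26-WT both lay above replicates 3 and 4 in 25 of the 37 genes (67.6%), among them Brca1, Trp53bp1, Msh6, Atr, Mre11a and Parp1, and both lay below in 7 (18.9%): Brca2, Rad52, Rmi2, Xrcc4, Xrcc6, Trp53 and H2ax. Over all genes tested the shares were 35.4% and 35.3%. The median summed exon length was 7342 bases in the 25 genes and 4476 in the 7. Across the 37 genes, which share the same libraries, the ratio of highest to lowest library had a Spearman correlation with exon length of 0.43 within R26-WT and 0.57 within R26-TIR1(F74G), given as a description. For replicate 7 over the median of its group the correlation was 0.67. Per the labels, RNA integrity numbers ran from 5.5 to 9.3 without a value for each library, and the part of RNA integrity in this pattern was not tested. Across the same genes exon length and the log2 fold change between genotypes had a correlation of 0.25.

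**Figure D4:**
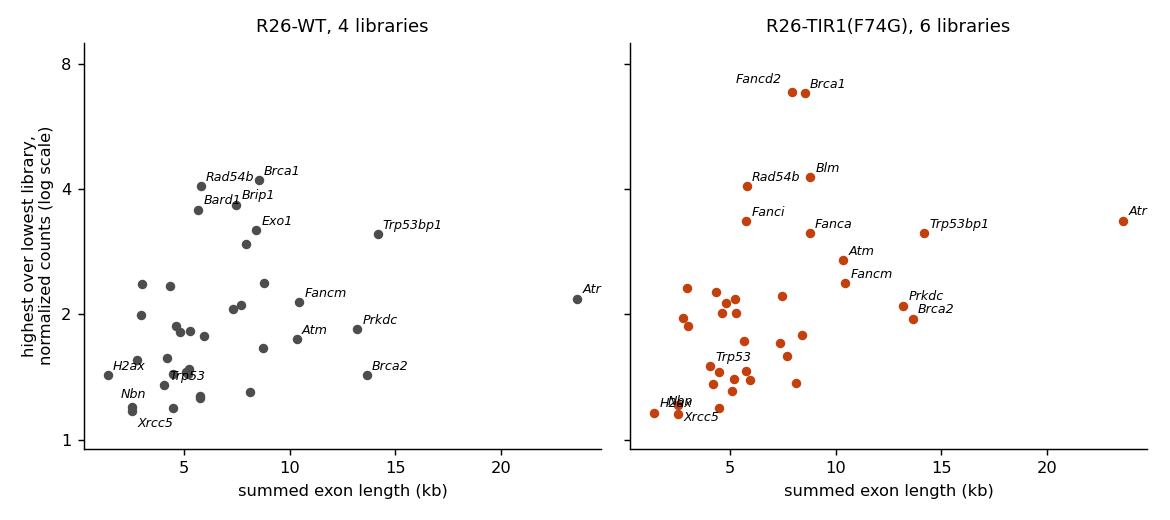
Ratio of the highest to the lowest library in normalized counts (y axis, log scale) against summed exon length in kilobases (x axis) for the 37 genes, within R26-WT (left) and within R26-TIR1(F74G) (right). Of the shorter genes, Nbn and Xrcc5 lie near the bottom in both groups while Fancb, with 2956 bases, is at 1.99 and 2.32, and Brca1 and Fancd2 reach 6.81 and 6.85 within R26-TIR1(F74G).

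Other genes of the damage response, a list of 66 of which 65 were tested, had 3 called, all higher, with a median log2 fold change of 0.06. Of all genes tested 1.40% were called higher. Dna2, a nuclease of long resection, and Wee1, the kinase that restrains Cdk1, had log2 fold changes of 0.91 (SE 0.25) and 0.91 (SE 0.26), with adjusted p of 0.0246 and 0.0373 by DESeq2 and 0.219 and 0.245 by edgeR. Dna2 was called in 5 of the 10 fits without 1 library and Wee1 in 4. Both were lost without R26-WT replicate 3 or 4 or R26-TIR1(F74G) replicate 7 or 10, each of which left 1 call in the list, Dna2 also without R26-TIR1(F74G) replicate 5, and Wee1 also without R26-WT replicate 1 or R26-TIR1(F74G) replicate 8. Rad51c, which also acts in recombination, had a log2 fold change of 0.45 (SE 0.23; adjusted p 0.711 by DESeq2).

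Of 26 p53 target genes 23 were tested, and their median log2 fold change was 0.019. Sesn1, a stress-response gene that restrains mTORC1, was called and was lower: it had 10098, 10803, 7623 and 8012 normalized counts in R26-WT and 6369, 7130.4, 6198, 7296, 5523 and 6825 in R26-TIR1(F74G). The log2 fold change was -0.48 (SE 0.14), with an adjusted p of 0.036 by DESeq2 and 0.137 by edgeR, and the call stood in 4 of the 10 fits without 1 library (it was lost without R26-WT replicate 1 or 2 and without R26-TIR1(F74G) replicate 5, 7, 9 or 10). Cdkn1a, the cell cycle inhibitor p21, had a log2 fold change of 0.58 (SE 0.24; adjusted p 0.401 by DESeq2) and did not pass. No p53 target was called higher, against 1.40% of all genes tested, and 55 of those 16363 genes were called lower.

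Of 19 mitosis genes 16 were called, all higher, with a median log2 fold change of 1.57, and edgeR called 5. Of all genes tested 1.40% were called higher by DESeq2, and edgeR called 0.373% in either direction. Mki67, the proliferation marker, went from 127 ± 69.5 to 409 ± 226 normalized counts, a log2 fold change of 1.70 (SE 0.40; adjusted p 0.00253 by DESeq2 and 0.176 by edgeR). Among the 6 called with the smallest adjusted p, Ube2c, Cdk1, Aurkb, Birc5, Hmmr and Ccnb2, log2 fold changes ran from 1.39 for Cdk1 to 1.83 for Ccnb2, and all but Ccnb2 (adjusted p 0.0639) passed by edgeR too. Of 22 replication genes 9 were called, all higher, with a median of 0.51, and edgeR called 3. Rrm2, a subunit of ribonucleotide reductase, had a log2 fold change of 1.43 (SE 0.21), Cdc6, a licensing factor, 1.85 (SE 0.36), Uhrf1, which keeps DNA methylation, 1.20 (SE 0.24), Cdc45, of the replicative helicase, 0.82 (SE 0.16), and Mcm5 and Mcm7, also of that helicase, 0.66 (SE 0.13) and 0.34 (SE 0.08). Of these Rrm2, Cdc45 and Mcm5 passed by edgeR too, and Cdc6, Uhrf1 and Mcm7 did not, with edgeR adjusted p of 0.0862, 0.057 and 0.13. Mcm2 had a log2 fold change of 0.52 (SE 0.20) and did not pass by either tool.

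The mean log2 normalized count of the mitosis list was 7.28, 7.33, 6.61 and 6.10 in R26-WT replicates 1 to 4 and 7.90, 8.20, 9.02, 8.48, 8.36 and 7.95 in R26-TIR1(F74G) replicates 5 to 10. The mean of the 4 called members was 7.48, 7.72, 7.46 and 7.07 and then 8.06, 8.34, 8.76, 8.41, 8.08 and 8.29. Both were highest in replicate 7 and lowest in replicate 4. The mitosis means did not overlap between the groups, and the means of the called members could not, since none of these 4 genes overlaps by itself. With the mitosis mean as a covariate in the fit, none of the 37 genes was called and 27 of the 37 log2 fold changes changed sign. Chek1 then had a log2 fold change of 0.11, Rad54l -0.028, Rad51ap1 -0.19 and Rmi2 0.91. Because the mitosis level separates the same libraries as the genotype, the 2 cannot be told apart in these data.

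**Figure D5:**
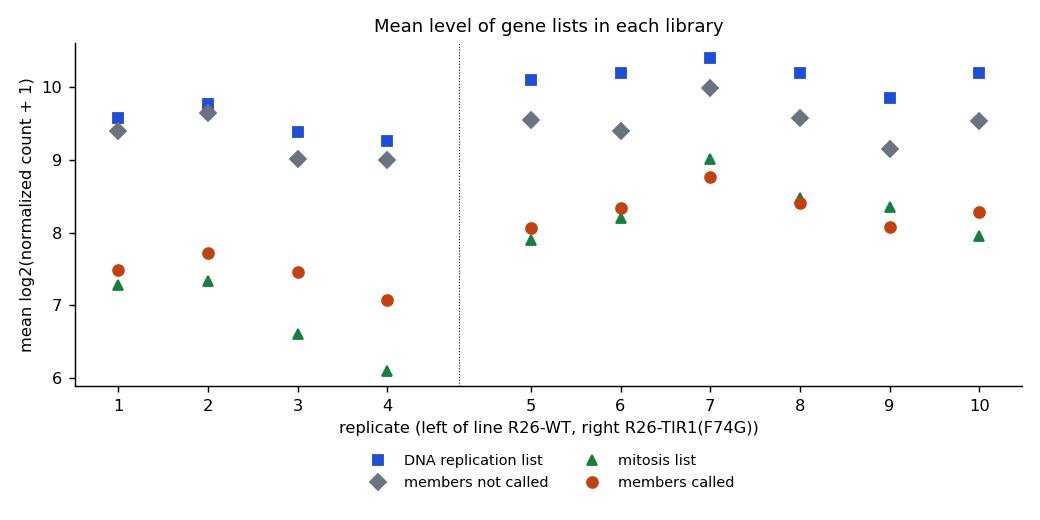
Mean log2(normalized count + 1) in each library (x axis, replicates 1 to 4 R26-WT, 5 to 10 R26-TIR1(F74G)) of the 4 called genes, the 33 other members, the 19 mitosis genes and the 22 DNA replication genes. The called members, the mitosis list and the replication list lie higher in all 6 R26-TIR1(F74G) libraries than in all 4 R26-WT libraries, while the 33 other members overlap; for the called members, none of which overlaps by itself, this follows from how they were picked.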

How the data were processed

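Libraries were prepared from T_reg cell RNA by low-input cDNA amplification with 12 cycles, without molecular identifiers named, and counting error alone therefore understates the technical error. The deposited values are raw read-pair counts per gene name, which the authors obtained with featureCounts 2.1.1 on GENCODE M30 (GRCm39) per the file headers, with mapping quality of at least 30. The submitters' processing notes list Bowtie2, and the study's methods name STAR for alignment. No strand option is stated, and pairs overlapping several genes were not counted.

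Counts were tested as deposited with DESeq2 1.42.0 in R 4.3.3 (Wald test, two-sided, with a term for genotype alone, over genes whose counts averaged 10 or more, Benjamini-Hochberg adjusted p under 0.05), the test of the study's methods, and with edgeR 4.0.16 (quasi-likelihood) beside it. DESeq2 gave no adjusted p for 6 genes. limma 3.58.1 (voom), sva 3.50.0, other scalings, filters and covariates, and leaving out each library served as alternatives. Intervals are the estimate ± 1.96 SE. The scripts were tested on simulated data. There the share of false calls was well above the threshold of 0.05 by DESeq2 and near it by edgeR. The DESeq2 calls are therefore to be read with the edgeR adjusted p beside them. Library names number 10 mice. All 21 pairs of libraries within a group differed by more than counting noise (chi-square per degree of freedom 9.45 to 215), so none looked like a library deposited again; repeat preparations of 1 sample would differ too. Each was counted as a replicate by its label. The p-values weigh the difference between the genotypes against the spread between these libraries. They do not separate the genotype from what runs with it.

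The members and lists were chosen with earlier results of these data known. Every member is named; called members, and the 2 uncalled members of each role with the highest mean normalized count (not divided by exon length), are given in every library. Of the other lists, Rad51c, Cdkn1a, Mki67, Mcm2, Foxp3 and up to 6 called genes each are named, and some genes of these lists are not reported here.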

Additional observations from a re-analysis of the deposited data

Results flagged for a closer look

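Some libraries stood apart from the rest of their group by Dixon's criterion, that is, the gap to the nearest library took up more of the group's range than chance gives in 1 of 20 groups. Of 126 groups of values examined (the 37 genes, the named genes of the other lists, the totals and the list means in each genotype), 14 did so, where chance gives about 6.30, and genes of 1 library are not independent. In 10 of the 14 the library was R26-TIR1(F74G) replicate 7, which was highest in normalized counts for Brca1 (339, others 49.8 to 149), Palb2 (683, others 399.7 to 479), Rad51ap1 (356, others 168 to 199.9), Fanca (378, others 121 to 177), Fancm (812, others 342 to 454), Trp53bp1 (2907, others 928 to 1545), Atm (3128, others 1160.5 to 1527), Aurkb (487, others 222 to 292), Uhrf1 (1726, others 802 to 1119.6) and Foxp3 (16059, others 6778 to 9851). Of these genes Rad51ap1, Aurkb and Uhrf1 were called between the genotypes. Without replicate 7 the log2 fold change was 0.69 for Rad51ap1, which was still called, 0.51 for Brca1, 0.53 for Fanca and 0.052 for Palb2, and it turned to -0.11 for Fancm, -0.30 for Trp53bp1 and -0.071 for Atm.

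Replicate 6 was lowest for Bard1 (38.0, others 55.6 to 65.7), replicate 9 was lowest for Mdm2 (4967, others 5975 to 6505), and replicate 8 was highest for Rad51c (147, others 74.8 to 99.1). Replicate 9 was also highest for Cd22 (273, others 23.6 to 51.2), a B cell marker. The same 4 members were called without replicate 9.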

How the results depend on the processing

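Among all genes tested, calls numbered 284 by DESeq2, 61 by edgeR, 128 by edgeR with the trend over gene length removed (an alternative added after seeing the data), 743 with a surrogate variable and 36 with the mitosis list as covariate. Of the 37 members 4 were called, against 0 by edgeR, 0 by limma voom, 0 with the mitosis covariate, 2 (Rad54l and Chek1) by edgeR without the length trend and 9 with the surrogate variable, all higher. For the 65 other damage response genes the 3 calls became 1, 1, 0 and 5 by edgeR, voom, the mitosis covariate and the surrogate variable. For p53 targets the 1 call became 0, 0, 0 and 2, and for replication genes the 9 became 3, 5, 0 and 15. For mitosis genes the 16 became 5 by edgeR, 7 by voom and 9 by edgeR without the length trend. With the covariate they became 0, but the covariate is the mean of these same mitosis genes. That 0 was therefore largely set by the fit and tests nothing. TMM size factors, no filter and a mean count of at least 50 left these counts within 1.5 times. Leaving out 1 library gave 2 to 7 member calls (2 without R26-WT replicate 3 or 4, 7 without R26-WT replicate 2), 1 to 3 other damage response calls, 0 to 1 p53 target calls, 11 to 16 mitosis calls and 6 to 11 replication calls. The median log2 fold change of the 37 genes, 0.20, was 0.11 to 0.36 without 1 library, 0.11 with the length trend removed, 0.10 with the surrogate variable and -0.25 with the mitosis covariate. The groups of 4 members stayed apart on CPM and on TMM-scaled counts.

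Single members changed sign as follows. With the mitosis covariate, log2 fold changes were Brca1 -0.97, Bard1 -0.23, Palb2 -0.60, Brca2 -0.14, Rad51ap1 -0.19, Rad54l -0.028, Rad54b -0.39, Rad52 0.14, Fanca -0.44, Fancd2 -0.85, Fanci -0.02, Fancm -1.04, Brip1 -0.51, Mre11a -0.48, Nbn -0.018, Exo1 -0.21, Blm -0.86, Xrcc4 0.35, Prkdc -0.56, Lig4 -0.25, Trp53bp1 -1.43, Msh6 -0.90, Pms2 -0.18, Atm -0.76, Atr -1.19, Trp53 0.43 and Parp1 -0.35. With the surrogate variable they were Fancm -0.026, Lig4 -0.0065, Trp53bp1 -0.19, Msh6 -0.049 and Atr -0.18. With the length trend removed they were Lig4 -0.012, Trp53bp1 -0.064 and Atr -0.05 by DESeq2 and Lig4 -0.013, Trp53bp1 -0.064 and Atr -0.05 by edgeR, and by voom Fancb 0.077 and Mdm2 0.07. Without 1 library the sign changed for Fancb (-0.22 to 0.12), Fancm (-0.11 to 0.37), Mre11a (-0.0084 to 0.25), Nbn (-0.0097 to 0.079), Lig4 (-0.033 to 0.15), Trp53bp1 (-0.30 to 0.36), Msh6 (-0.089 to 0.30), Atm (-0.071 to 0.39), Atr (-0.23 to 0.31) and Mdm2 (-0.087 to 0.088). Apart from the covariate and left-out libraries shown, the cause was not tested. No paired analysis was possible because replicate numbers run 1 to 4 in one group and 5 to 10 in the other. With 4 against 6 libraries, no member was called lower in any fit run.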
